A study of Homo sapiens with 4 samples.

Results

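Promoter accessibility was examined at 32 genes of cholesterol and fatty acid synthesis in HEK293T cells, an established human embryonic kidney line, after overexpression of MORC2, a DNA-compacting ATPase of the MORC family. The genes were chosen by name for their roles in sterol synthesis, sterol transport, control of the SREBP transcription factors and fatty acid synthesis. Earlier results of these data were known when they were chosen. All 32 were found by Entrez identifier among the 28775 promoters of the count table, and all 32 were among the 23407 promoters tested. Accessibility was measured by ATAC-seq, in which the Tn5 transposase cuts and tags open DNA, so a promoter with more fragments is more accessible. The value of a promoter is its deposited count, read here as the fragments whose midpoint lies within a window of 2 kb set around the gene's start. The study defined promoters by such windows, but how the deposited promoter counts were summed is not stated. Levels are printed as CPM, the counts relative to the TMM-scaled library total.

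The overexpression group consisted of 2 libraries of wild-type HEK293T cells transfected with pBacMam-MORC2-meGFP, a plasmid for MORC2 fused to a green fluorescent protein, using lipofectamine, for 72 hours. The control group consisted of 2 libraries of the same cells, described as receiving lipofectamine only. No control with an empty plasmid is described, so the effects of plasmid DNA and of MORC2 cannot be told apart. Each library was made from 50000 cells, and the study calls its replicates biological without saying how their cultures were kept apart. The p-values rest on counting error and on a spread between these libraries shared between promoters, not on that of a single promoter. No sorting of transfected cells is described, and a lower count from fewer cells with an open promoter cannot be told apart from less access per cell.

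The libraries differed in depth in the same direction as the groups. The control libraries held 10255182 and 8279528 counts over all promoters, against 7211724 and 3734519 in the overexpression libraries. Mitochondrial promoters took 51.9 and 55.6% of the control counts and 74.7 and 73.8% of the overexpression counts. Nuclear promoters were thus left with 4928862 and 3675088 counts in the control libraries, against 1826951 and 979895 in the overexpression libraries. The 32 promoters together received 14672, 11162, 5192 and 2694 counts in control replicates 1 and 2 and overexpression replicates 1 and 2, which is 0.298, 0.304, 0.284 and 0.275% of the nuclear counts. The median member count was 428 and 318 in the control libraries against 155 and 76 in the overexpression libraries, and the shallowest value was 11 counts, at ACACB in overexpression replicate 2. MORC2 itself had 18.3 and 15.6 CPM in control and 16.2 and 14.4 CPM in overexpression (log2 fold change -0.14, adjusted p = 0.695 by the edgeR quasi-likelihood test), which describes the chromosomal promoter and is no check of the transfection. The promoters of PAX2 and LIN28B, genes of renal and embryonic cells, had 15 to 55 and 22 to 118 counts per library, against 1 to 10 counts at PTPRC, ALB and CD3E, which mark blood and liver cells; these 5 were chosen after their values were seen.

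Cholesterol is built from acetyl-CoA through the mevalonate pathway, which yields farnesyl diphosphate, and then through squalene and lanosterol. Fatty acids are built from the same precursor, which ACLY makes from citrate and ACSS2 from acetate. Both routes are driven by the SREBP transcription factors, which SCAP carries from the endoplasmic reticulum for activation when sterols are scarce and which the INSIG proteins hold back when sterols are plentiful. SREBPs bind sterol regulatory elements in promoters, usually beside sites for NF-Y, which reads CCAAT, and Sp1, which reads GC boxes. ACLY has been reported as a binding partner of MORC2, which is one reason these genes are of interest in cells with added MORC2.

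Upstream sequence was available from RefSeq on GRCh38.p14 for 29 of the 32 genes, in 43 windows because some genes have several listed starts. SQLE, FDFT1 and FASN had no entry. The 250 bases before the start are shown for 6 genes, taking the outermost start where there are several. Capitals mark the sterol regulatory element TCACNCCAC and the NF-Y motif CCAAT, on either strand (ATTGG is CCAAT on the other strand). MVK and NPC2 are shown because their promoters passed the test between the groups, and SREBF2 because it alone held the sterol regulatory element. HMGCS1 is shown as a gene of an early step of the mevalonate pathway. FDPS and MSMO1 are examples of windows with several CCAAT motifs (3 and 4). MVD, TMEM97 and the window of one IDI1 start also held 3. The log2 fold changes of these 5 genes ran from -0.21 at MVD to 0.05 at IDI1. MVK, whose window held the most copies (5), had -0.43. No relation of the motif to accessibility was tested.
HMGCS1 (chr5:43313413-43313662, minus strand, GRCh38.p14): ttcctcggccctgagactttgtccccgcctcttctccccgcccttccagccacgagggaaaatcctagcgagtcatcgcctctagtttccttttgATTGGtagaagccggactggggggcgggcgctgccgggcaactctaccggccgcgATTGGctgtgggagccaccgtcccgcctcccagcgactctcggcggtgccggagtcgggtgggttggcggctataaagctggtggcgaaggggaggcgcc
MVK (chr12:109573544-109573793, plus strand, GRCh38.p14): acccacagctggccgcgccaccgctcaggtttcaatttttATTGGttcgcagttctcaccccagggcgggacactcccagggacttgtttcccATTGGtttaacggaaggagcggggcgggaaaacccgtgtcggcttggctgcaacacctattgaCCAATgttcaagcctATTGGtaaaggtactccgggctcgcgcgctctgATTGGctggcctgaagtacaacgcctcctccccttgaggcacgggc
FDPS (chr1:155308616-155308865, plus strand, GRCh38.p14): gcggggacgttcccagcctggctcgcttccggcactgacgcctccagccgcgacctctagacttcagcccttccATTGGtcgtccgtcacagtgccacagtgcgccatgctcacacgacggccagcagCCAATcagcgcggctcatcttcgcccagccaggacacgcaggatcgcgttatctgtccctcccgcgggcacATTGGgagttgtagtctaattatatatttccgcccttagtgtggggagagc
MSMO1 (chr4:165327419-165327668, plus strand, GRCh38.p14): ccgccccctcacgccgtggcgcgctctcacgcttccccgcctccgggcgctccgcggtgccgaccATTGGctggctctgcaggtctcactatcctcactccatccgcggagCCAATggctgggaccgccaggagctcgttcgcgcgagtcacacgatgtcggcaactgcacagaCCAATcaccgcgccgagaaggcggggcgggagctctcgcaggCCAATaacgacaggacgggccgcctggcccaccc
SREBF2 (chr22:41832855-41833104, plus strand, GRCh38.p14): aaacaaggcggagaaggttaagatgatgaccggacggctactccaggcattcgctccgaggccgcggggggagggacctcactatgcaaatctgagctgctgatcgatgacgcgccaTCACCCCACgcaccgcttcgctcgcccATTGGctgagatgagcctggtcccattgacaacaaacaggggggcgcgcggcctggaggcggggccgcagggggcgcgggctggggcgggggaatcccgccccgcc
NPC2 (chr14:74493513-74493762, minus strand, GRCh38.p14): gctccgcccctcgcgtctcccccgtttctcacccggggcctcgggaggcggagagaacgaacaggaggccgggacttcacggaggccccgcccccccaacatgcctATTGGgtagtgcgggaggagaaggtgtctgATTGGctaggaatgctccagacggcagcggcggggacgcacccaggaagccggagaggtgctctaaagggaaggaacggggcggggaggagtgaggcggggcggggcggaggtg

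The sterol regulatory element was found in 1 of the 43 member windows, 133 bases before the start of SREBF2 (2.33%, against 0.883% of all 35116 upstream windows of that length). CCAAT stood in 25 member windows (58.1%, against 32.0% of all windows), with 5 copies before MVK. The GC box GGGCGG stood in 39 member windows (90.7%, against 42.6% of all windows and 55.0% of the windows of genes tested). The E-box CANNTG, which SREBPs can also bind and which includes CACGTG, was found in 19 member windows (44.2%, against 61.8% of all), and CACGTG in 5 (11.6%, against 6.35%). Both strands were searched for each motif, and other spellings of the sterol element were not searched. Windows of the same gene can overlap and hold the same site. The 2 windows of SC5D share their CACGTG and the 2 of ACLY share their CCAAT motifs, so these are not counts of separate sites. In the SREBF2 window the sterol element and CCAAT do not overlap. Member windows were rich in G and C, with a median of 68.0% and 23 CpG dinucleotides, against 58.0% and 11 over all windows and 62.4% and 17 over the windows of genes tested. A match of letters is a description of the window and not evidence that a factor was bound there.

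In control cells most of these promoters were among the more accessible ones. Levels are set side by side here on the reading that each count covers a window of the same length. How the deposited counts were summed is not stated, nor which start was used for genes with several. The starts listed for PMVK and ACACB lay 5939 and 5398 bp from the end of the gene model, so which start their levels describe is not known. FASN and FDFT1 had no listed start, so the same holds for them. Among 23370 nuclear promoters tested, the median member stood at percentile 87.3 of the control level and 27 members lay above the median nuclear promoter (12.0 CPM). The order ran from INSIG1, at 82.8 and 85.1 CPM in the control libraries, and GGPS1, at 81.1 and 75.8 CPM, down to PMVK at 5.34 and 6.34 CPM and ACACB at 5.06 and 4.81 CPM. Of the 31 neighbouring pairs in this order, 16 did not overlap between their control libraries and 15 did. ACACA, the cytosolic acetyl-CoA carboxylase of fatty acid synthesis, had 10.1 and 12.3 CPM, above its mitochondrial counterpart ACACB in both control libraries. FASN (58.5 and 56.1 CPM) and MSMO1 (58.8 and 69.1 CPM) were high, and FDFT1, the squalene synthase, was low at 7.05 and 7.59 CPM. Roles did not sort the levels, since the mevalonate pathway alone spanned 78.5 CPM at GGPS1 to 5.84 CPM at PMVK in the control means.

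**Figure D1:**
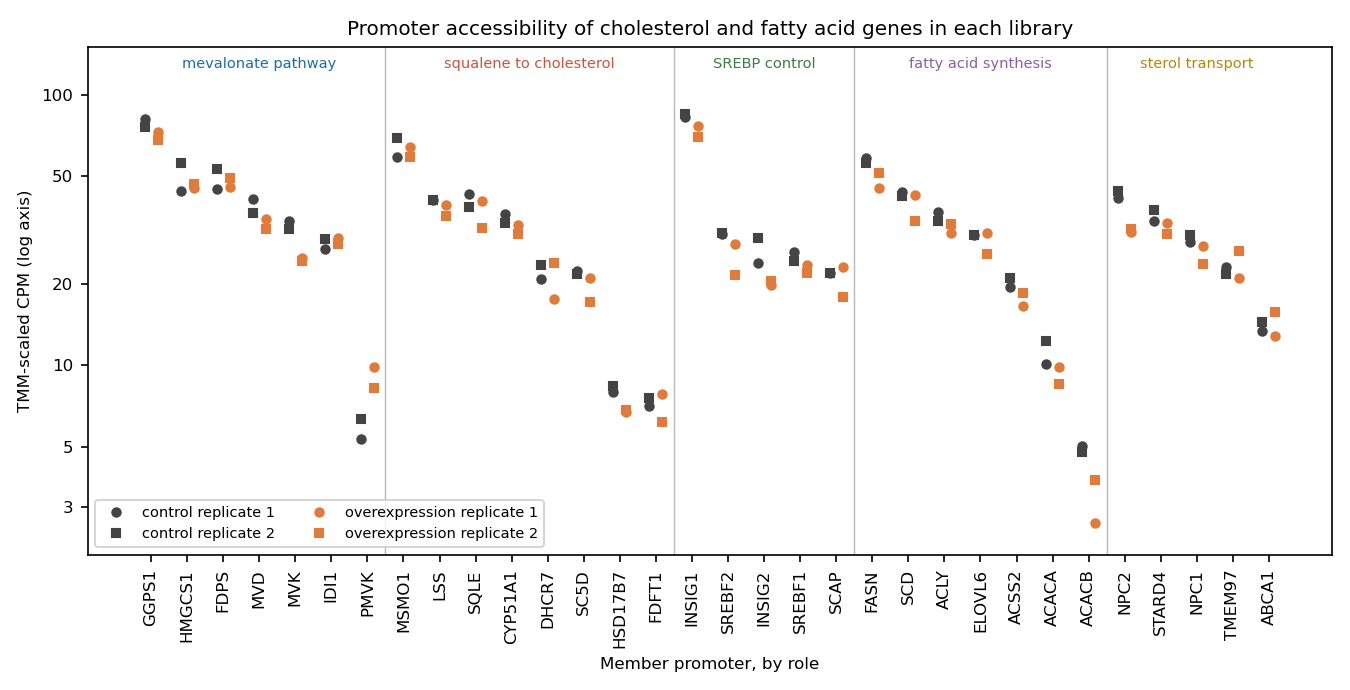
Accessibility of each of the 32 promoters in TMM-scaled CPM on a log axis, grouped by role and sorted by control level, with 1 point per library (dark, control; orange, overexpression; circles, replicate 1; squares, replicate 2). INSIG1 and GGPS1 lead and ACACB and PMVK are lowest, and PMVK is the only gene whose overexpression points both lie above its control points.

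With MORC2 overexpression, 28 of the 32 promoters had a log2 fold change below 0 and 4 above it, with a median of -0.15 and a range of -0.71 to 0.68. Over all promoters tested, 48.6% lay below 0 and the median was 0.01. Only MVK and NPC2 passed an adjusted p of 0.05 over all promoters tested (edgeR quasi-likelihood test, Benjamini-Hochberg adjustment), both lower, where 1.3% of all promoters were called lower, 1.16% higher and 2.47% in either direction. A count of 2 is too small to set against that share. At an unadjusted p under 0.05, 6 members were lower and 1 was higher, against a background of 8.57% lower and 8.66% higher. In 19 members the overexpression libraries were both lower than either control library, in 1 they were both higher, and in 12 the groups overlapped; over all promoters these shares were 24.9% below and 24.8% above.

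These counts moved with the level of the promoters. Over all promoters tested, split into 4 equal bins by abundance, the median log2 fold change ran from 0.39 in the lowest bin through 0.13 and -0.05 to -0.13 in the highest. Of the members, 22 fell into the highest bin, 5 into each of the next 2 and none into the lowest. In the highest bin the median of the 22 members was -0.14 and 20 of them lay below 0, against -0.13 and 79.2% for all promoters of that bin. The overexpression libraries were both lower than either control in 14 of these 22 members and in 2950 of the 5852 promoters of the bin. The 5 members of the second bin had a median of -0.24, against 0.13 for all promoters there, and comprised PMVK, FDFT1, HSD17B7, ACACA and ACACB. In the upper 2 bins together, 40.2% of all promoters had both overexpression libraries below both controls, 3.08% were called, 2.56% lower, and 15.8% were lower at an unadjusted p under 0.05. Scaling by a loess curve on abundance, which sets the median near 0 at every level, left 19 members below 0 with a median of -0.03 and a range of -1.03 to 0.54. Upper quartile scaling and scaling to the nuclear totals left 23 and 24 members below 0. Over all promoters, 305 were called lower and 272 higher under TMM, but 109 and 384 under upper quartile scaling and 129 and 337 under nuclear totals. With loess scaling no member passed the threshold, 5 had an unadjusted p under 0.05 (background 10.7%), and 67 promoters in all were called (0.286%). The part of depth and of the mitochondrial share in this trend was not tested, and neither can be told apart from the treatment here.

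**Figure D2:**
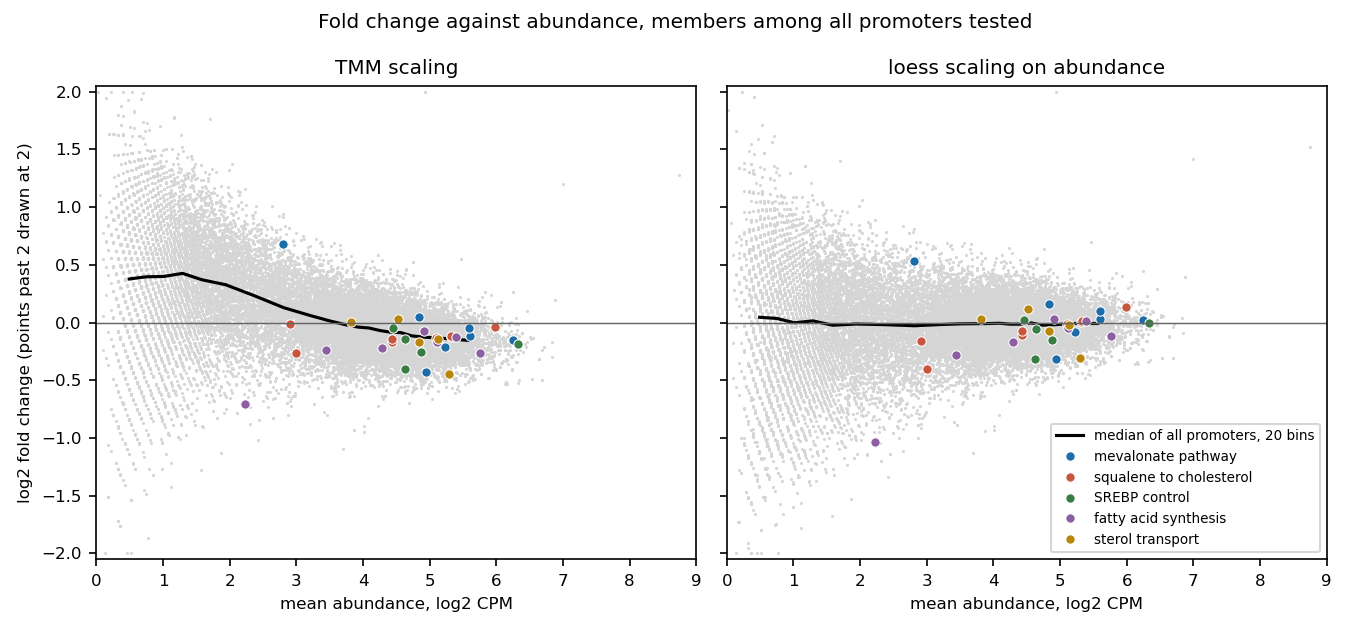
Log2 fold change (overexpression over control) against mean abundance (log2 CPM) for all 23407 promoters tested (grey) and the 32 members (coloured by role), under TMM scaling on the left and loess scaling on the right; values past 2 are drawn at 2. The black line, the median in 20 bins of abundance, slopes from above 0 to below 0 under TMM and is flat under loess, and most members sit at the right, near the line.

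Single libraries showed the same pattern with unequal size. The median member difference on the log2 scale was -0.10 and -0.22 for overexpression replicates 1 and 2 against control replicate 1, and -0.13 and -0.25 against control replicate 2. It was 0.02 between the control libraries and -0.11 between the overexpression libraries, replicate 2 being lower. The last value is of the same size as the smallest difference between the groups. For all promoters of the highest bin the between-group medians were -0.10, -0.15, -0.11 and -0.17 in the same order. The counts of the 32 members in the control libraries differed by more than sampling alone gives (chi-square per degree of freedom 2.06, against 1.63 for all nuclear promoters of the highest bin). For the overexpression libraries the value was 0.999. Their median member counts were 155 and 76, against 428 and 318 in control. An excess of the same relative size shows less at lower counts, so these values do not compare the replicates of the groups. Differences between replicates were largest at ACACB (log2 0.49) and DHCR7 (0.45) in overexpression and at HMGCS1 (0.34) and INSIG2 (0.31) in control, as replicate 2 over replicate 1.

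The mevalonate pathway was represented by 7 promoters, of which 5 had a log2 fold change below 0 (median -0.12, but 0.03 with loess scaling). MVK, the mevalonate kinase, had 34.3 and 32.0 CPM in control (33.1 ± 1.59, SD, n = 2) and 25.0 and 24.3 CPM in overexpression (24.7 ± 0.459, SD, n = 2). Both overexpression values, from 134 and 71 counts, lay below both control values. The replicates of each group lay close together, but the spread in the test was shared between promoters, so this closeness does not enter it. The promoter fell by 0.43 on the log2 scale (95% interval -0.68 to -0.17, SE 0.129, adjusted p = 0.0421 by edgeR), a level 0.744 times that of control. With loess scaling the value was -0.32 with an adjusted p of 0.294, and no fit that left out 1 library kept the call. PMVK, the phosphomevalonate kinase that takes the next step, moved the other way in its values. It had 5.34 and 6.34 CPM in control and 9.88 and 8.22 CPM in overexpression, from 75, 66, 53 and 24 counts. Both overexpression values lay above both control values, 1.60 times the control level, but the difference did not pass the threshold (log2 0.68, SE 0.220, 95% interval 0.25 to 1.11, adjusted p = 0.0706). HMGCS1, the HMG-CoA synthase, had 44.2 and 55.9 CPM in control and 45.3 and 46.6 CPM in overexpression. The control replicates stood farther apart than the groups, and the log2 fold change of -0.12 had an adjusted p of 0.606. IDI1, the isopentenyl diphosphate isomerase, had 27.0 and 29.3 CPM in control and 29.6 and 28.1 CPM in overexpression (log2 0.05, 95% interval -0.19 to 0.30). MVD, FDPS and GGPS1, which make isopentenyl, farnesyl and geranylgeranyl diphosphate, ranged from -0.21 to -0.05, and none passed the threshold.

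All 8 promoters from squalene to cholesterol had a log2 fold change below 0, and none reached an unadjusted p of 0.05 (median -0.13). Of all promoters tested 48.6% lay below 0, and of those in the upper 2 bins 69.9%. With loess scaling 5 of the 8 lay below 0, against 52.0% of all promoters. Under TMM the values ran from -0.27 at HSD17B7, a sterol reductase, to -0.01 at FDFT1. SQLE, the squalene epoxidase, LSS, the lanosterol synthase, and CYP51A1, the lanosterol demethylase, had -0.13, -0.12 and -0.13. MSMO1, SC5D and DHCR7, which act later on the sterol ring, had -0.04, -0.17 and -0.15. The groups did not overlap at 4 of the 8, which were LSS, CYP51A1, HSD17B7 and SC5D, with overexpression lower, against 24.9% of all promoters and 40.2% of those in the upper 2 bins. The 95% intervals of all 8 spanned 0, and the widest, at HSD17B7 (-0.72 to 0.19), came from one of the shallowest promoters.

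The 5 promoters of SREBP control all had log2 fold changes below 0 (median -0.18), and none passed the threshold. Of all promoters in the upper 2 bins 69.9% lay below 0, and with loess scaling 4 of these 5 did. INSIG2, which retains SCAP in the endoplasmic reticulum, had 23.9 and 29.6 CPM in control and 19.8 and 20.6 CPM in overexpression. The groups did not overlap, although the control replicates differed by more than the overexpression replicates did (log2 -0.40, SE 0.140, adjusted p = 0.0860). SREBF2, which encodes the SREBP of sterol synthesis and whose upstream window held the sterol element printed above, had 30.6 and 30.8 CPM in control and 28.1 and 21.6 CPM in overexpression. Overexpression replicate 2 was the low one, and the difference between the overexpression replicates exceeded that of replicate 1 from control (log2 -0.25, adjusted p = 0.280). SREBF1, which encodes the SREBP of fatty acid synthesis, had 26.2 and 24.2 CPM against 23.5 and 21.9 CPM. INSIG1, the most accessible member, had 82.8 and 85.1 CPM against 76.6 and 69.6 CPM (log2 -0.18, adjusted p = 0.291), and a log2 fold change of -0.0024 with loess scaling. SCAP, the escort of the SREBPs, had 21.9 CPM in both control libraries and 23.1 and 17.8 CPM in overexpression, which lie on either side of control.

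All 7 fatty acid promoters had log2 fold changes below 0 (median -0.22), and none passed the threshold. Of all promoters tested 48.6% lay below 0, and of those in the upper 2 bins 69.9%. With loess scaling 5 of the 7 lay below 0, against 52.0% of all promoters. FASN, the fatty acid synthase, had 58.5 and 56.1 CPM in control and 45.3 and 51.4 CPM in overexpression. The groups did not overlap (log2 -0.27, SE 0.106, 95% interval -0.47 to -0.06, adjusted p = 0.143). ACACB, the acetyl-CoA carboxylase of the mitochondrial surface, which limits fatty acid oxidation, had 5.06 and 4.81 CPM in control and 2.61 and 3.77 CPM in overexpression. It had the lowest log2 fold change of the 32 (-0.71, SE 0.334, adjusted p = 0.215), resting on 71, 50, 14 and 11 counts. ACLY, the reported MORC2 partner, had 36.9 and 34.1 CPM in control and 30.8 and 33.2 CPM in overexpression. The overexpression values lay below the control values, but the highest of one and the lowest of the other differed by less than the replicates of either group, and the log2 fold change was -0.17 (SE 0.120, 95% interval -0.40 to 0.07, adjusted p = 0.478). ACSS2, ACACA, SCD, the stearoyl-CoA desaturase, and ELOVL6, a fatty acid elongase, ranged from -0.24 to -0.07.

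Of the 5 promoters of sterol transport, 3 had a log2 fold change below 0 (median -0.14). NPC2, the lysosomal protein that hands cholesterol to NPC1, had 41.6 and 43.9 CPM in control (42.8 ± 1.65, SD, n = 2) and 31.1 and 31.9 CPM in overexpression (31.5 ± 0.522, SD, n = 2). Both overexpression values, from 167 and 93 counts, lay below both control values. The replicates of each group lay close together, but the test shared the spread between promoters and does not use this closeness. The promoter fell by 0.44 on the log2 scale (95% interval -0.68 to -0.21, SE 0.119, adjusted p = 0.0174 by edgeR), to 0.736 times the control level. With loess scaling the value was -0.31 with an adjusted p of 0.276, and here too no fit without 1 of the libraries kept the call. NPC1, the membrane protein that takes up the cholesterol, had a log2 fold change of -0.17 (adjusted p = 0.504), and STARD4, a soluble sterol carrier, had -0.14. TMEM97, a sterol-responsive membrane protein that binds NPC1, had 23.2 and 21.7 CPM in control and 21.1 and 26.4 CPM in overexpression, with the overexpression libraries on either side of control (log2 0.03). ABCA1, the exporter of cholesterol to HDL, had 0.01.

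**Figure D3:**
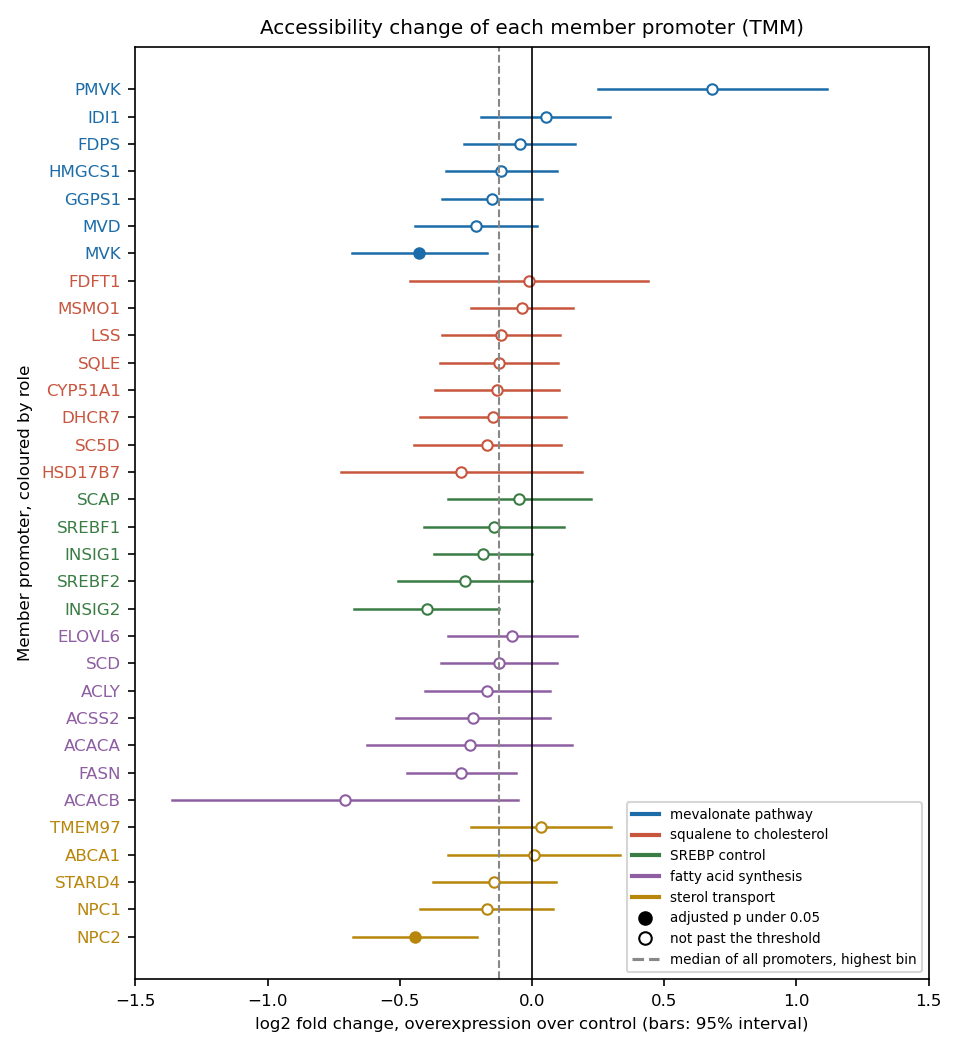
Log2 fold change of each promoter under TMM (x axis) with its 95% interval, grouped and coloured by role; filled points passed an adjusted p of 0.05, and the dashed line is the median of all promoters in the highest abundance bin, -0.13. Most intervals span both 0 and the dashed line, MVK and NPC2 are the filled points, and PMVK stands apart on the right.

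Many of these promoters are shared with another gene. Of the 29 genes with a listed start, 15 had the start of another gene within 2 kb (51.7%, against 28.5% of all 27305 genes with an entry and 34.3% of those tested), and in all 15 the neighbour lay on the opposite strand. For 11 of them the neighbour had its own count, which differed from that of the member by at most 0.522% in any library at LSS and by at most 7.29% at SREBF2. Windows of 2 kb around such starts overlap, and nearly equal counts cannot be assigned to one gene. MVK shares its window with MMAB, an enzyme of vitamin B12 metabolism, whose start lies 290 bp away: the counts of MVK were 481, 333, 134 and 71, and those of MMAB were 480, 336, 135 and 72. NPC2 shares its window with ISCA2, a mitochondrial iron-sulfur cluster protein 253 bp away: those of NPC2 were 584, 457, 167 and 93, and those of ISCA2 were 584, 456, 166 and 92. Both promoters that passed the test are therefore those of gene pairs. The other protein-coding neighbours were TADA2A for ACACA, ARID4B for GGPS1 and WDR37 for IDI1. CYP51A1, INSIG1, LSS, MVD, SREBF2 and STARD4 had non-coding neighbours named as antisense or divergent transcripts, CYP51A1-AS1, INSIG1-DT, MCM3AP-AS1, SNAI3-AS1, SREBF2-AS1 and STARD4-AS1. Leaving all these neighbours out of the fit, an alternative added after seeing the data, kept both member calls. For PMVK, ACLY, ACACB and SCAP the listed start lay 5939, 11523, 5398 and 1186 bp from the end of the gene model, and which start the count table used is not stated.

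**Figure D4:**
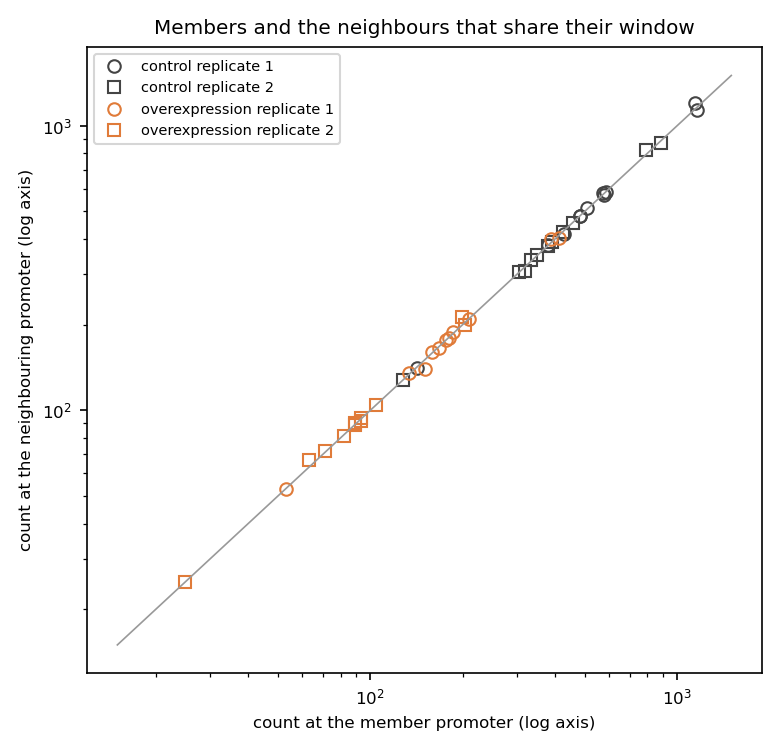
Count at the neighbouring promoter against count at the member promoter, both on log axes, for the 11 members whose neighbour within 2 kb has a row of its own, with 1 point per library (dark, control; orange, overexpression). All points lie on or close to the line of equal counts.

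Beyond the 32 genes, 46 other genes of these pathways were examined, among them further sterol and fatty acid enzymes, SREBP proteases, LXR factors and prenyl transferases. Of these, 29 had a log2 fold change below 0 and 17 above, with a median of -0.09, and 16 had both overexpression libraries below both controls against 8 above, where the shares over all promoters were 24.9 and 24.8%. Of the 46, 14 fell into the third abundance bin and 23 into the highest. In these 2 bins together, 69.9% of all promoters lay below 0 and 40.2% had both overexpression libraries below both controls. A single one of the 46 passed the threshold, where 2.47% of all promoters were called, and a count of 1 is too small to set against that share. The promoter that passed was that of PDSS1, which makes the side chain of coenzyme Q. It had 20.1 and 22.2 CPM in control and 14.0 and 16.1 CPM in overexpression, and fell by 0.51 on the log2 scale (adjusted p = 0.0417 by edgeR, SE 0.156). TECR and HSD17B12, both of which act in each round of elongation of very long chain fatty acids, had log2 fold changes of -0.43 and -0.37 with adjusted p of 0.0673 and 0.0759. TECR had 22.9 and 26.4 CPM in control against 18.3 and 17.8 CPM, and HSD17B12 had 33.1 and 38.0 CPM against 24.8 and 31.5 CPM. The groups overlapped at neither gene. With loess scaling the median of the 46 was -0.02 and none passed the threshold.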

How the data were processed

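Chromatin accessibility was measured by ATAC-seq (Omni-ATAC protocol, paired-end reads of 65 bp) in 2 control and 2 overexpression libraries. According to the methods and labels, the authors trimmed the reads, aligned them with bowtie2 to T2T-CHM13, kept proper pairs with a high mapping quality, and had Picard remove duplicates. Their own test counted fragment midpoints in consecutive windows of 250 bp and summarised the results to promoters, defined as 2 kb around each start. The deposited table holds whole-number counts per promoter, 1 row per Entrez identifier, with no normalisation. How these were summed is not stated, and they were read here as counts over the 2 kb. No shift for the Tn5 offset was described. The deposited MACS2 peak lists were not used here, because no gene annotation of CHM13 was at hand. Groups, replicate numbers and count columns were taken from the labels.

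Symbols were matched by Entrez identifier to RefSeq on GRCh38.p14 (28763 of 28775 rows named, 12 not). That build differs from the one of the counts, so it served only for names, neighbours and upstream sequence. The filterByExpr function of edgeR 4.0.16, run in R 4.3.3, kept 23407 promoters. These were scaled by TMM and compared with the two-sided quasi-likelihood F-test in its legacy form without covariates. P-values were adjusted by Benjamini-Hochberg over all promoters tested, with 0.05 as the threshold. The prior degrees of freedom were infinite and the common biological coefficient of variation was 4.28%, so the spread was shared between promoters. Library differences used a prior count of 2 on the log2 scale. The loess alternative used limma 3.58.1 with a span of 0.3. Intervals are 95% and, like all counts of reads without molecular identifiers, reflect these libraries and counting error only. With 2 libraries against 2, an exact permutation test of a single promoter cannot go below p = 0.333, so none is printed. The fitting code was tested on simulated data.

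Replicate numbers were not taken as pairs: they come from the labels without a stated shared batch, and the deviations of same-numbered libraries correlated at 0.0502 over 14976 promoters. The members, the list of 46 other pathway genes and the tests were chosen with earlier results of these data known. Values per library are printed for members with an unadjusted p under 0.05, for the 3 highest and 3 lowest log2 fold changes and for ACLY, SREBF1, SREBF2, SCAP, INSIG1, HMGCS1 and FASN, and for further members when levels are described. Genes of the other list are named at an unadjusted p under 0.01.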

Additional observations from a re-analysis of the deposited data

How the results depend on the processing

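Over all promoters the count past the threshold was 577, and it was 67 with loess scaling, 218 among promoters of mean count 50 or more, 108 by the DESeq2 Wald test (DESeq2 1.42.0), 101 to 206 without 1 library, and 30 with loess scaling without mitochondrial promoters, an alternative chosen after seeing the data. The members past the threshold numbered 2. They numbered 1 with upper quartile scaling, where MVK and NPC2 were both lost (adjusted p = 0.112 and 0.0617) and PMVK passed, 1 with nuclear totals, which was NPC2, and 0 under loess scaling, whether mitochondrial promoters were kept or not, under the mean count filter, by the DESeq2 Wald test, which gave MVK no adjusted p (NA), and in each fit without 1 library (0 to 0). The 1 call in the other pathway list became 0 under all of these. The DESeq2 test also gave no adjusted p to other members, among them PMVK, IDI1, FDFT1, SREBF1, SREBF2 and INSIG2. A promoter without one was counted as not past the threshold. The DESeq2 counts, 108 over all promoters and 0 among members, therefore do not cover every promoter tested. At an unadjusted p under 0.05 there were 7 members, against 4 under upper quartile scaling, under the mean count filter and without overexpression replicate 1, 5 with DESeq2 and under loess, and 9 with no filter. The member median of -0.15 was -0.0647 under upper quartile scaling, -0.0859 under nuclear totals, -0.0319 under loess, -0.0729 under the mean count filter and -0.0248 under loess less mitochondrial promoters, and ran from -0.244 to -0.114 without 1 library. In the order upper quartile, nuclear totals, loess, mean count filter and loess less mitochondrial promoters, the fatty acid median of -0.22 was -0.144, -0.165, -0.113, -0.125 and -0.108, and it ran from -0.251 to -0.177 without 1 library. Under both forms of loess, the second less mitochondrial promoters, the mevalonate median turned to 0.0346 and 0.0395, the SREBP control median was -0.0584 and -0.0485 and the sterol transport median was -0.0181 and -0.0111, and the median from squalene to cholesterol was -0.0328 under the second. Without 1 library the mevalonate median ran from -0.124 to 0.0476 (above 0 without control replicate 2), that of SREBP control from -0.306 to -0.13, that of squalene to cholesterol from -0.231 to -0.0766 and that of sterol transport from -0.239 to -0.0832. The sterol transport median was -0.0614 under upper quartile scaling, -0.0828 under nuclear totals and -0.0710 under the mean count filter. The adjusted p of MVK ranged from 0.0369 to 0.314 over the 15 of 16 alternatives that gave one, and that of NPC2 from 0.0149 to 0.276 over 16, and both had lower values in overexpression in all 16. PMVK passed the threshold with upper quartile scaling (log2 fold change 0.76, adjusted p = 0.0444). The fit with the replicate block called 488 promoters, 469 of them shared with the 577, and changed no member call (member median -0.15; MVK adjusted p = 0.0408, NPC2 adjusted p = 0.0227). DESeq2 size factors, no filter, the edgeR 4 form of the test, leaving out mitochondrial promoters and leaving out neighbours kept both member calls. Members that did not pass in either fit changed sign in 48 values of 14 genes. Among windows of genes tested, the background shares of GGGCGG, of the E-box and of CACGTG were 55.0, 58.1 and 7.46%. Depth was low in overexpression replicate 2, with 11 counts at ACACB, 18 at FDFT1, 20 at HSD17B7, 24 at PMVK and 25 at ACACA. Causes of these changes were not tested.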
